A study of Mus musculus with 23 samples.

Results

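The proliferins Prl2c2, Prl2c3, Prl2c4 and Prl2c5, a group of near-identical genes of the prolactin family, were followed in C2C12 cells, an established mouse myoblast line that fuses into myotubes when serum is withdrawn. The members were chosen by symbol, and the group was chosen because Prl2c2 had fallen strongly by day 6 in the libraries labelled Runx1KO, so every value that uses the growth medium or day 6 libraries of that label is a description with no test. Of the 4 symbols, 3 have a row among the 32793 rows of the deposited tables. Prl2c4 has no row of its own, and RefSeq lists that symbol as a synonym of Prl2c3. The 3 members with a row passed the filter on low counts among 14187 tested genes, Prl2c5 only through its growth medium libraries.

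Poly(A) RNA was sequenced in 23 libraries of 8 groups: cells labelled control and cells labelled Runx1KO, each sampled as growing cultures in 20% fetal bovine serum (day 0, growth medium) and 1, 3 and 6 days after the change to differentiation medium, which holds 2% horse serum. Each group has 3 libraries except the control group at day 0, which has 2. The sample titles give the last time as day 6, and the description of the series gives it as 5 days. How the knockout was made, and whether the line is 1 clone, are not given in the sources used here. The labels do not say that replicates came from separate cultures, so p-values measure only the spread between these libraries, which may be technical.

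Proliferins are secreted glycoproteins of the prolactin and growth hormone family. They were first described as transcripts that serum and growth factors induce in cultured fibroblasts, and in the animal they are best known from the trophoblast giant cells of the placenta, where they promote the growth of blood vessels. They bind the cation-independent mannose 6-phosphate receptor, encoded by Igf2r, and in muscle cell lines proliferin has been described as a factor of growing myoblasts that holds back differentiation.

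The genes lie close together on chromosome 13 of GRCm38, the assembly also called mm10 (gene models of GENCODE M21). Prl2c3 (ENSMUSG00000056457.6) spans chr13:12790816-12800079 on the minus strand with 5 exons. Prl2c2 (ENSMUSG00000079092.4) spans chr13:12996125-13005383 on the minus strand with 5 exons. Prl2c5 (ENSMUSG00000055360.13) spans chr13:13182715-13191923 on the plus strand with 6 exons in its longest coding transcript. The coding sequences of Prl2c2 and Prl2c3 are each 675 bases long with the stop codon and differ at 3 bases, an identity of 99.6%. Prl2c5 differed from Prl2c2 at 33 of 669 aligned coding bases and from Prl2c3 at 34. Counted from 1 at the A of the start codon, with the base of Prl2c2 first, the differences between Prl2c2 and Prl2c3 are T14C, C200A and T319G, and each changes the amino acid. These sites are shown because, within the coding sequence, they are all that a read can use to tell Prl2c2 from Prl2c3. The exonic sequences around them are given 5′ to 3′, with capitals at the bases that differ among the genes shown.
Prl2c2, coding bases 1 to 34: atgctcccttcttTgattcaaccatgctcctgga
Prl2c3, coding bases 1 to 34: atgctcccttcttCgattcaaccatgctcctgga
Prl2c2, coding bases 180 to 220: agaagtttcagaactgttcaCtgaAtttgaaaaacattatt
Prl2c3, coding bases 180 to 220: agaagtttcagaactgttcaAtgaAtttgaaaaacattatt
Prl2c5, coding bases 189 to 229: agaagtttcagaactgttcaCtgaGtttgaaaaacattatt
Prl2c2, coding bases 299 to 339: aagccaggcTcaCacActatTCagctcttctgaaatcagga
Prl2c3, coding bases 299 to 339: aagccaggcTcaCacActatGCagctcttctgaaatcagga
Prl2c5, coding bases 308 to 348: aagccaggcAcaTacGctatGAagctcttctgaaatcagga

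Of all 50-base windows of the Prl2c2 transcript, 86.9% also occur in the transcript of another member, as do 78.6% of those of Prl2c3 and 22.2% of those of Prl2c5. With windows of 100 bases the shares were 66.4%, 62.3% and 4.24%. The deposited counts are estimates that divide such reads among the genes they match. The sum over the members is therefore the main measure here, and the split between Prl2c2 and Prl2c3 is uncertain.

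Before the proliferins are described, the libraries need a short account. The totals ran from 22197606 to 23684077 estimated counts per library, so that 3 counts, the limit used for a gene with no reads, correspond to between 0.126 and 0.140 CPM (counts scaled to library size, corrected for library composition). Runx1 mRNA, which checks the labels, was not lower in the libraries labelled Runx1KO: its mean was 120 CPM there and 84.0 CPM in controls at day 0, and 311 against 153 CPM at day 6. A gene-level count does not show whether the mRNA encodes an intact protein, so the groups are called by their labels. All 5 myoblast markers (Myod1, Myf5, Des, Cdh15, Pax7) and all 5 myotube markers (Myog, Ckm, Acta1, Myh3, Tnnt3) were detected. In control libraries the summed myotube markers lay between 0.396 and 0.880 CPM at day 0 and between 1695 and 1876 CPM at day 3. The 6 trophoblast markers, the cells best known for proliferins, never exceeded 4 counts in a library, and 4 of the 6 were at 0 throughout. Replicate 2 of the Runx1KO group at day 1 stood apart from its replicates, with a chi-square per degree of freedom of about 61 over genes (61.3 and 61.1), against at most 27.4 for any replicate pair without it.

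In control cells the proliferins were abundant in growth medium and nearly gone after 1 day of differentiation medium. The summed proliferin level was 113 and 118 CPM in the 2 control libraries at day 0. At day 1 it was 0.680, 1.40 and 1.15 CPM, from 16, 33 and 27 counts. The groups do not overlap, and every day 1 library lies far below both day 0 libraries. The fall was 107-fold, a log2 change of -6.73 (SE 0.38, adjusted p = 1.36e-12, quasi-likelihood test of edgeR, adjusted after Benjamini and Hochberg). In bulk RNA such a fall does not distinguish fewer cells that express the genes from less RNA per cell.

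Prl2c2 and Prl2c3 were called lower in this step, as were 27.6% of all tested genes. Prl2c5 passed the filter only through growth medium and so had to differ from day 0, and its counts are given here and below as a description. Levels of single genes are given in TPM, which are scaled by transcript length as well as by library. Prl2c2 stood at 190 and 187 TPM in the control libraries at day 0 and at 1.37, 3.08 and 1.62 TPM at day 1. Prl2c3 stood at 96.5 and 95.6 TPM and then at 0.670, 0.790 and 1.43 TPM. Prl2c5 was far less abundant than both, with 29 and 45 counts at day 0 (2.90 and 4.20 TPM) and 0, 2 and 1 counts at day 1. The log2 change was -6.73 for Prl2c2 (SE 0.36, adjusted p = 6.51e-13, edgeR's quasi-likelihood test) and -6.83 for Prl2c3 (SE 0.47, adjusted p = 3.62e-11).

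The proliferins then came back in control cells. The sum was 4.44, 6.85 and 6.98 CPM at day 3, above every day 1 library, and 55.2, 27.7 and 19.4 CPM at day 6, above every day 3 library. The rise from day 1 to day 3 was 5.63-fold (log2 change 2.49, SE 0.42, adjusted p = 0.000131, quasi-likelihood test of edgeR, adjusted after Benjamini and Hochberg). The rise from day 3 to day 6 was again 5.60-fold (log2 change 2.48, SE 0.29, adjusted p = 8.52e-06). The day 6 libraries of the control group were spread widely, replicate 1 standing highest, with a mean of 34.1 ± 18.7 CPM (SD, n = 3) against 6.09 ± 1.43 CPM at day 3. Day 6 was still 3.38-fold below growth medium (log2 change -1.76, SE 0.27, adjusted p = 5.75e-06).

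**Figure D1:**
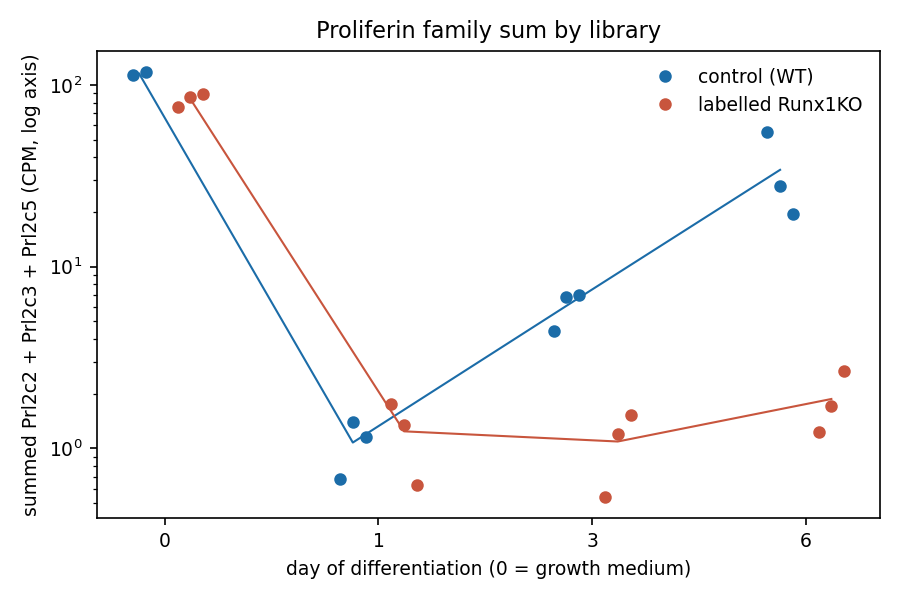
Summed proliferin level in CPM (vertical log axis) by day of differentiation (horizontal axis, days 0, 1, 3 and 6 evenly spaced), with 1 point for each library and a line through the group means of control and Runx1KO labelled cells. Both labels fall from day 0 to day 1, after which the control libraries climb to between 19.4 and 55.2 CPM and the libraries labelled Runx1KO stay at or below 2.66 CPM.

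In both later steps of the control course Prl2c2 and Prl2c3 were called higher. Among all tested genes 11.0% were called higher from day 1 to day 3 and 4.87% from day 3 to day 6. Prl2c2 reached 6.18, 7.80 and 10.04 TPM at day 3 and 60.8, 25.4 and 26.1 TPM at day 6. Its log2 change was 1.98 in the first of these steps (SE 0.44, adjusted p = 0.0024, edgeR's quasi-likelihood test) and 2.23 in the second (SE 0.30, adjusted p = 2.88e-05). For both genes every library of the later time lay above all libraries of the earlier one, as it did for 24.4% of tested genes in the first step and 14.4% in the second. Prl2c3 reached 6.19, 11.0 and 8.58 TPM at day 3 and 87.8, 45.0 and 33.6 TPM at day 6, with log2 changes of 3.18 (SE 0.56, adjusted p = 0.000231) and 2.69 (SE 0.34, adjusted p = 1.49e-05). Prl2c5 had 1, 1 and 7 counts at day 3 and 16, 4 and 3 counts at day 6. Its groups overlap, and with so few counts it is given without a test.

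Measured over the whole course in control cells, from growth medium to day 6, Prl2c2 and Prl2c3 were called lower, where 31.1% of tested genes were. Prl2c2 ended 5.72-fold below its day 0 level (log2 change -2.52, SE 0.26, adjusted p = 1.41e-08, edgeR's quasi-likelihood test). Prl2c3 ended nearer to its starting level, with a log2 change of -0.96 (SE 0.31, adjusted p = 0.00955). That call was lost in 4 of 14 alternatives, with an adjusted p of up to 0.327. Among them were the fits without control replicate 2 of day 0 (adjusted p = 0.0533), without control replicate 3 of day 6 (log2 change -0.60, adjusted p = 0.0786) and with DESeq2 (log2 change -0.93, adjusted p = 0.163). Prl2c5 had 29 and 45 counts at day 0 and 16, 4 and 3 at day 6, a difference fixed by the filter and given with no test. Replicate 1 of day 6 was the highest control library of that day for all 3 members, and it did not reach the day 0 level of any of them.

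**Figure D2:**
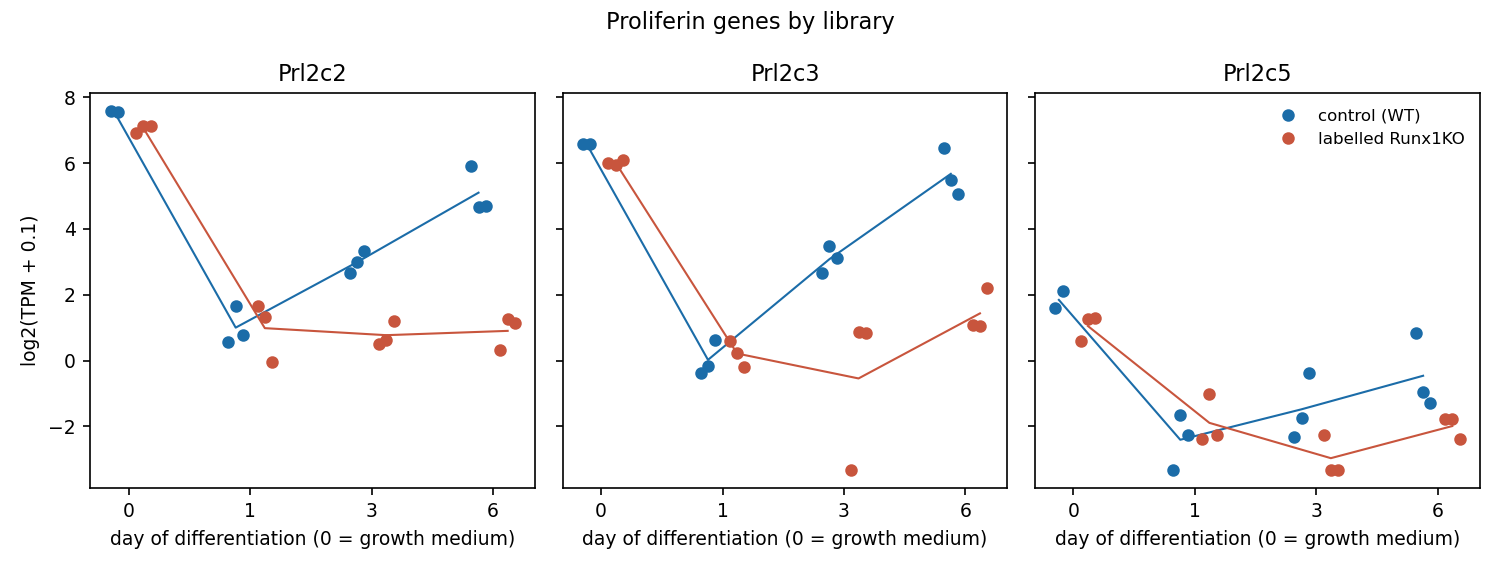
Level of Prl2c2, Prl2c3 and Prl2c5 as log2(TPM + 0.1) (vertical axis, 1 panel per gene) by day of differentiation (horizontal axis, evenly spaced), with 1 point per library and lines through the group means of control and Runx1KO labelled cells. Prl2c2 is the highest of the 3 at day 0 (187 to 190 TPM in controls), Prl2c3 is the highest at day 6 in the control group (33.6 to 87.8 TPM), and Prl2c5 stays at or below 4.20 TPM.

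In the libraries labelled Runx1KO the proliferins were likewise abundant in growth medium and low at day 1, and they stayed low at days 3 and 6. The sum was 76.0, 86.1 and 88.6 CPM at day 0, then 1.76, 1.34 and 0.627 CPM at day 1, 0.543, 1.21 and 1.53 CPM at day 3, and 1.24, 1.72 and 2.66 CPM at day 6. The first of these groups lies far above the other three, which overlap one another. Relative to day 0 the sum was 67.0-fold lower at day 1 and 44.5-fold lower at day 6, and these 2 values are descriptions, since they use the libraries by which the genes were chosen. Prl2c2 and Prl2c3 were lower without overlap in both spans, where 26.6% of tested genes were lower without overlap at day 1 and 36.9% at day 6.

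The span by which the genes were chosen, day 0 to day 6 in libraries labelled Runx1KO, took Prl2c2 from 121, 140 and 141 TPM to 1.14, 2.30 and 2.10 TPM, a log2 difference of -6.32. Prl2c3 went from 63.8, 61.7 and 67.8 TPM to 2.00, 1.96 and 4.47 TPM, a log2 difference of -4.66. Prl2c5 went from 15, 25 and 26 counts to 2, 2 and 1. The day 6 values of Prl2c3 all lie above its day 3 values of 0, 1.71 and 1.69 TPM, as 26.2% of tested genes did, while those of Prl2c2 overlap its day 3 values of 1.32, 1.44 and 2.18 TPM.

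The step from day 1 to day 3 in the libraries labelled Runx1KO did not enter the choice and could be tested. In edgeR 0 of 2, Prl2c2 and Prl2c3, were called in either direction, where 26.7% of tested genes were; 0 had an unadjusted p under 0.05, and DESeq2 and limma called 0. Prl2c2 had 25, 19 and 7 counts at day 1 and 11, 12 and 18 at day 3, and Prl2c3 had 13, 9 and 6 and then 0, 15 and 16. The sum had a log2 difference of -0.18 (95% interval -1.33 to 0.97, adjusted p = 0.841, quasi-likelihood test of edgeR, adjusted after Benjamini and Hochberg). The interval spans changes of more than 2-fold downward, and the value took either sign when single libraries were left out (from -0.51 to 0.14).

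Between the labels, no difference in the proliferins was detectable at the depth of day 1, and they were lower in the libraries labelled Runx1KO at day 3. At day 1 the sum overlapped between labels, with 16 to 33 counts in control libraries and 14 to 39 in libraries labelled Runx1KO. The log2 difference, Runx1KO minus control, was 0.20 (95% interval -0.94 to 1.34, adjusted p = 0.795, edgeR's quasi-likelihood test), and 0 of 2, Prl2c2 and Prl2c3, were called, where 42.2% of tested genes were. Neither had an unadjusted p under 0.05 in edgeR, and DESeq2 and limma called 0 of them. At day 3 every library labelled Runx1KO (0.543 to 1.53 CPM) lay below every control library (4.44 to 6.98 CPM). The sum was 5.55-fold lower (log2 difference -2.47, SE 0.43, adjusted p = 5.27e-05). Prl2c2 and Prl2c3 were called lower at day 3, where 19.2% of tested genes were. Their log2 differences were -2.13 (SE 0.46, adjusted p = 0.000618) and -2.80 (SE 0.54, adjusted p = 0.000202). Prl2c5 had 1, 1 and 7 counts in controls and 1, 0 and 0 in libraries labelled Runx1KO, too few to compare. Markers of differentiation moved with the label at both times: in edgeR all 5 myotube markers were called higher in the libraries labelled Runx1KO at day 1 and at day 3, where 22.9% and 24.0% of tested genes were. At day 3 limma on log2(TPM + 1) called 4 of the 5, without Myh3. The summed level of all 5 at day 3 was 2865 to 5309 CPM in the libraries labelled Runx1KO and 1695 to 1876 CPM in control libraries, and their part in the proliferin difference was not tested.

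The difference between the labels in the step from day 1 to day 3 was tested as an interaction. For the sum it was -2.68 on the log2 scale (SE 0.71, adjusted p = 0.0241, quasi-likelihood test of edgeR, adjusted after Benjamini and Hochberg), a call that 2.58% of tested genes received in the same direction. It was lost without any 1 of 4 libraries: Runx1KO day 1 replicate 1 (-2.36, adjusted p = 0.0789), Runx1KO day 1 replicate 2 (-2.63, adjusted p = 0.0739), control day 1 replicate 1 (-2.46, adjusted p = 0.0547) and Runx1KO day 3 replicate 1 (-2.36, adjusted p = 0.0626). The second of these is the library that stands apart over all genes. For single members the interaction was -2.26 for Prl2c2 (adjusted p = 0.078) and -3.001 for Prl2c3 (adjusted p = 0.0964), and 0 of 2 passed in edgeR with the filter on low counts. Without that filter edgeR called both (adjusted p = 0.00527 for Prl2c2 and 0.00662 for Prl2c3). Both had an unadjusted p under 0.05 with the filter, and DESeq2 and limma, on log2(TPM + 1) and on log2(TPM + 0.1), each called Prl2c2 and Prl2c3. Prl2c2 alone was also called with only the groups compared (adjusted p = 0.0429) and without Runx1KO day 1 replicate 3 (adjusted p = 0.0371).

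At day 0 and day 6 the difference between labels is described without a test. In growth medium the libraries labelled Runx1KO (76.0 to 88.6 CPM) lay below the control libraries (113 and 118 CPM), a 1.38-fold difference, and each of the 3 members was lower without overlap too. At day 6 the sum was 18.2-fold lower (1.24 to 2.66 CPM against 19.4 to 55.2 CPM). Among all tested genes, 26.6% were lower without overlap at day 0 and 25.2% at day 6. These comparisons share the control libraries with the control course above.

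Ranked by mean, the summed level ran from control day 0 (115 ± 3.58 CPM, SD, n = 2) through Runx1KO day 0 (83.6 ± 6.66, n = 3), control day 6 (34.1 ± 18.7, n = 3) and control day 3 (6.09 ± 1.43, n = 3) to Runx1KO day 6 (1.87 ± 0.723, n = 3). Each of these neighbours is separated from the next without overlap. Below them Runx1KO day 1 (1.24 ± 0.573), Runx1KO day 3 (1.09 ± 0.501) and control day 1 (1.08 ± 0.366, n = 3 each) could not be ordered, and their libraries overlap those of Runx1KO day 6.

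Prl2c3 held a larger share of the proliferin counts in the control libraries of days 3 and 6 than in growth medium. Prl2c3 held 36.0% and 36.2% of the counts of both genes in the control libraries at day 0. It held 53.5%, 61.1% and 48.7% at day 3 and 61.6%, 66.3% and 59.1% at day 6. All libraries of days 3 and 6 lie above both libraries of day 0. The 95% Wilson interval of the lowest day 6 library, from 460 counts of both genes, ran from 54.6% to 63.5%, and that of the higher day 0 library, from 2501 counts, from 34.4% to 38.1%; such intervals cover counting error only. The mean share was 36.1% ± 0.186 (SD, n = 2) at day 0 and 62.4% ± 3.66 (SD, n = 3) at day 6, a difference of 26.3 percentage points with p = 0.1 in a two-sided exact permutation test. This is the smallest p that 2 against 3 libraries allow, and it became 0.3 when adjusted over the 6 comparisons made. Day 3 against day 0 in control cells differed by 18.3 points with the same p, and the other 4 comparisons gave p between 0.2 and 1.

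Day 1 holds too few reads to place the share, with 16 to 31 counts of both genes in control libraries. In the libraries labelled Runx1KO the share was 36.9%, 32.8% and 34.8% at day 0, 0%, 55.6% and 47.1% at day 3 from 11 to 34 counts, and 65.4%, 47.4% and 71.7% at day 6 from 26 to 60 counts. The day 6 values lie above the day 0 values, while 1 day 3 library lies below all of them, and both times rest on few reads. The difference in share between labels at day 3 was -20.2 points (p = 0.4, two-sided exact permutation test, n = 3 each). With 3 against 3 libraries the smallest p is 0.1, so this test could not have passed 0.05. On the TPM scale the share of Prl2c3 was 33.6% and 33.8% in control libraries at day 0 and between 56.3% and 63.9% at day 6. The share follows the way the authors' software divided reads between genes that differ at 3 coding bases, and whether that division contributes to the shift was not tested. Prl2c5 held 1.13% and 1.77% of the family's counts at day 0 and between 0.640% and 1.25% at day 6 in control libraries.

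**Figure D3:**
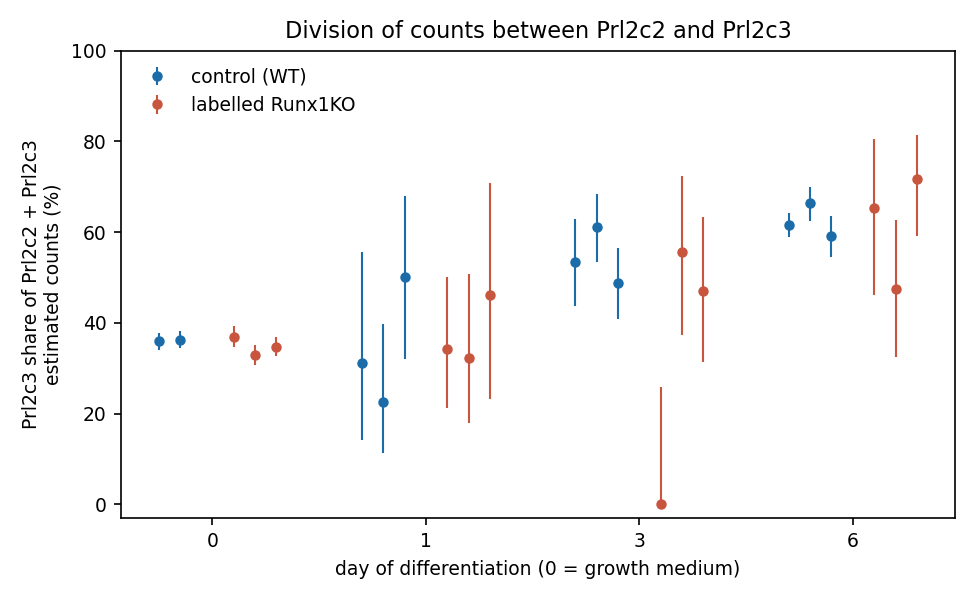
Share of Prl2c3 in the summed counts of Prl2c2 and Prl2c3 (percent, vertical axis) for each library by day and label, with 95% Wilson intervals as bars. The control libraries move from about 36% at day 0 to between 59.1% and 66.3% at day 6, and the bars are wide wherever fewer than 61 counts were available.

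Outside the proliferins the prolactin family was almost silent. Of 24 other family members, among them prolactin itself (Prl), the placental lactogens Prl3d1 and Prl3b1, and growth hormone (Gh), all have a row, 14 had any count, 3 exceeded 3 counts in some library and 1 could be tested. That gene, Prl8a1, a placental member, had group means between 1.50 and 2.69 CPM and was not called in any of the 8 tested comparisons. The summed level of the 24 genes stayed between 0.754 and 3.48 CPM in every library. The proliferins thus made up nearly all of the family's reads in growth medium and a part of like size at day 1.

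Of the 4 receptor genes examined, Igf2r, Ghr and M6pr could be tested, and the prolactin receptor Prlr never exceeded 1 count. Igf2r, whose product binds proliferin, rose as the proliferins fell, from 18.7 ± 1.87 CPM (SD, n = 2) at day 0 to 41.0 ± 4.34 (n = 3) at day 1 in control cells (log2 change 1.13, adjusted p = 1.06e-05, edgeR's quasi-likelihood test). It was 67.8 ± 15.4 CPM at day 6, so receptor mRNA and proliferin mRNA were both present then. At day 3 Igf2r was higher in the libraries labelled Runx1KO (105 ± 16.2 against 55.2 ± 2.00 CPM, adjusted p = 1.64e-05), where the proliferins were lower. Ghr, the growth hormone receptor, also rose at day 1 in control cells (log2 change 1.39, adjusted p = 1e-10) and was lower in the libraries labelled Runx1KO at day 1 (log2 difference -0.94, adjusted p = 1.25e-08) and at day 3 (-0.70, adjusted p = 5.57e-07). The calls of M6pr, the cation-dependent mannose 6-phosphate receptor, differed between scalings and are not described.

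Serum induction of proliferin is known to act through AP-1, the dimers of Fos and Jun proteins, at an element that the glucocorticoid receptor (Nr3c1) also touches. Of these 8 regulator genes, 6 rose from day 0 to day 1 in control cells, 1 fell and 1 was not called (median log2 change 0.54, against 0.02 over all tested genes, of which 27.1% were called higher and 27.6% lower). The 1 that fell was Fosl1, a Fos family subunit, from 243 ± 14.4 CPM (SD, n = 2) to 153 ± 8.19 (n = 3), with a log2 change of -0.67 (adjusted p = 0.00129, edgeR's quasi-likelihood test), and it fell again by 0.63 to day 3 (adjusted p = 0.00385). In that second step, when the proliferins rose, Fos was called higher (log2 change 0.50, adjusted p = 0.0173) and the other 6 were not called, where 11.0% of tested genes were called higher and 8.68% lower. Jun rose by 0.61 and Fosl2 by 0.81 in the first step. From day 3 to day 6, when the proliferins rose 5.60-fold in control cells, 0 of the 8 were called in edgeR, DESeq2 or limma, where edgeR called 9.79% of tested genes. Of the 8, 3 had an unadjusted p under 0.05 in edgeR (Nr3c1, Jun and Fosb). Fosl1 stood at 98.6 ± 10.7 CPM at day 3 and 109 ± 20.2 at day 6 (SD, n = 3 each). Between labels at day 1, when no difference in the proliferins was detectable, Fosb, Jun and Junb were called lower in the libraries labelled Runx1KO, where 19.2% of tested genes were. For each, the lowest of these libraries was replicate 2, which stands apart over all genes. The highest (Fosb 2.42, Jun 188 and Junb 613 CPM) lay just below the lowest control library (2.61, 199 and 688 CPM). At day 3, Fosl2 was lower in the libraries labelled Runx1KO (log2 difference -0.47, adjusted p = 8.63e-05), and the other 7 were not called with the scaling used here, where 19.2% of tested genes were called lower. Up to 4 of the 8 were called lower by other scalings or tools. In the interaction edgeR called 0 of 8, where it called 6.05% of tested genes, with Fosl2 alone under 0.05 unadjusted, and DESeq2 called Fosl2.

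Since proliferin is a product of growing cells, 10 proliferation genes (Mki67, Top2a, Ccna2, Ccnb1, Cdk1, Mcm2, Mcm5, Pcna, Plk1, Birc5) were set beside it. All 10 fell with the proliferins from day 0 to day 1 in control cells (median log2 change -1.57, against 0.02 over all tested genes, of which 27.6% were called lower). From day 1 to day 3, as the proliferins rose, 5 of the 10 (Mcm2, Mcm5, Top2a, Cdk1 and Pcna) rose and 0 fell (median 0.24, against 0.02), where 11.0% of tested genes rose. From day 3 to day 6, as the proliferins rose further, all 10 fell (median -0.76, against -0.01), where 4.92% of tested genes fell. Between labels all 10 were higher in the libraries labelled Runx1KO at day 1 (median 0.89, against 0.03), where 22.9% of tested genes were and no difference in the proliferins was detectable. All 10 were higher again at day 3 (median 1.00, against 0.04), where 24.0% of tested genes were and the proliferins were lower. Their summed level at day 3 was 931 to 1140 CPM in control libraries and 1823 to 2127 CPM in the others. Among markers of other cell types, the macrophage list moved with the day 6 rise through Cd68, a lysosomal protein also made outside macrophages. Cd68 rose from 1.11 ± 0.287 CPM at day 3 to 3.32 ± 1.26 at day 6 in control cells (adjusted p = 0.00135), with the summed list at 0.784 to 1.30 and 2.47 to 4.77 CPM. Its part in the result was not tested, Ptprc and Adgre1 never exceeded 1 count, and Cd68 was higher still in the Runx1KO libraries of day 6 (10.7 ± 1.09 CPM), where the proliferins were low.

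Over the 23 libraries, the 8 named genes whose log2 CPM ran most like the proliferin sum, by Pearson's r among 10660 genes with at least 5 CPM in some group, were Pla2g4a (r = 0.96), Tnfrsf21 (0.93), Mapre2 (0.93), Esd (0.91), Zc2hc1a (0.91), Ccng1 (0.91), Slc48a1 (0.91) and Ereg (0.90). These r values are descriptions over libraries that share groups, and no p is given. Pla2g4a, which encodes cytosolic phospholipase A2, went from 37.1 CPM at day 0 to 15.2, 16.4 and 28.0 CPM at days 1, 3 and 6 in control cells. In the libraries labelled Runx1KO it went from 34.98 CPM to 13.8, 11.2 and 14.6 CPM. Ereg encodes epiregulin, a growth factor of the EGF family, and went from 25.0 to 6.86, 6.72 and 10.2 CPM in control cells. Tnfrsf21 encodes death receptor 6 and fell most among the 8, by 2.61 on the log2 scale from day 0 to day 1 in control cells, where the log2 change of the proliferin sum was -6.73. Within the 11 control libraries the r of Pla2g4a was 0.95, and within the 12 libraries labelled Runx1KO it was 0.96. The order of likeness depends on the libraries used: Pla2g4a ranked 8 among control libraries alone and 26 among those labelled Runx1KO, Esd 50 and 322, and Ereg 193 and 146. On log2 TPM over all libraries Pla2g4a again ranked 1 and Zc2hc1a ranked 117.

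**Figure D4:**
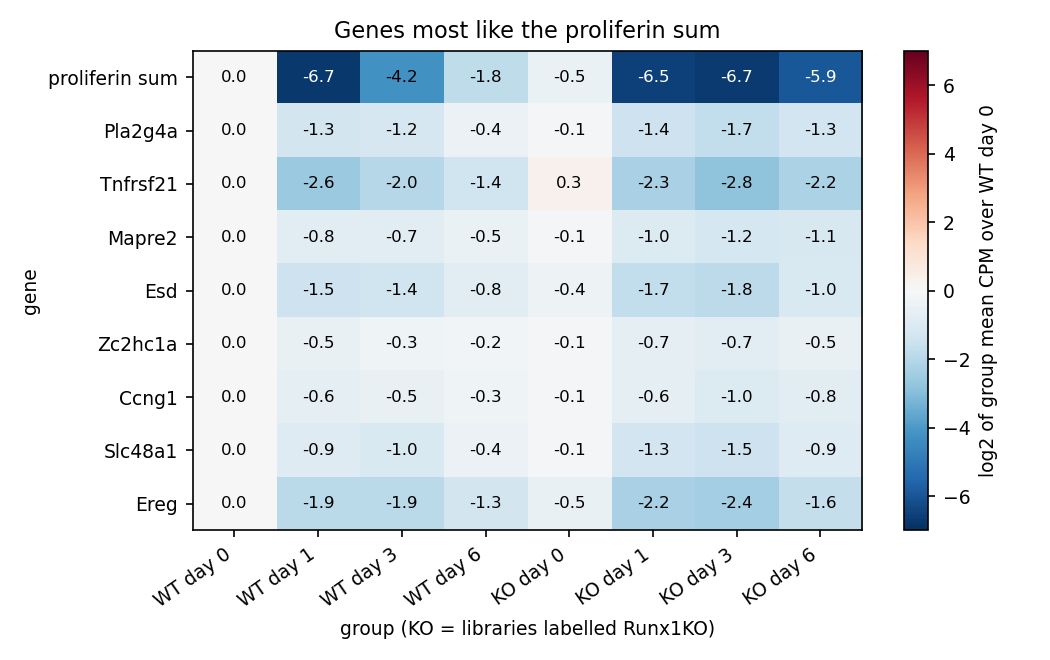
Heat map of the proliferin sum and the 8 genes most like it (rows) over the 8 groups (columns, WT for control and KO for libraries labelled Runx1KO), coloured and numbered by the log2 of the group mean CPM over that of control day 0. The top row holds by far the deepest colours, from day 1 on in both labels, and returns towards 0 in control day 6.

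The genes around the proliferins were examined within 500000 bases on either side of the members, a window set with the proliferin results known. RefSeq annotates 37 genes there, 34 of them other than the members, and many of those are pseudogenes. Of the 34, 8 have a row and 7 could be tested. Nid1, which encodes the basement membrane protein nidogen 1, and Gpr137b, a lysosomal membrane protein, were called higher from day 3 to day 6 in control cells (log2 changes 0.42 and 0.70, adjusted p = 0.00795 and 0.00191, edgeR's quasi-likelihood test). The other 5 of the 7 were not called in that step, where 4.87% of tested genes were called higher. At day 3, Nid1 was lower in the libraries labelled Runx1KO by a log2 difference of -1.35 (adjusted p = 3.85e-10), Gpr137b by -0.65, Gpr137b-ps by -0.52 and Lyst by -0.45, so that 4 of 7 were called lower, where 19.2% of tested genes were. Gpr137b-ps is annotated as a transcribed pseudogene. Whether it shares reads with Gpr137b was not tested, so their calls may not be separate. The interaction over day 1 to day 3 was -0.68 for Nid1 (adjusted p = 0.00433) and -0.70 for Gpr137b (adjusted p = 0.0421), in the direction of the proliferins and smaller. Nid1 did not follow them everywhere: it was higher at day 6 than at day 0 in control cells (log2 change 0.48, adjusted p = 0.000789), where the proliferins were lower. It was also lower in the libraries labelled Runx1KO at day 1 (log2 difference -0.67, adjusted p = 1.48e-05), where no difference in the proliferins was detectable. Actn2, the muscle alpha-actinin on the other side, went the opposite way at day 3 (log2 difference 5.89), and Heatr1 and Lgals8 were not called between labels then. From day 0 to day 1 in control cells Heatr1, Gpr137b, Gpr137b-ps and Nid1 fell by between 0.45 and 1.49 on the log2 scale, while Lgals8 rose by 0.24. In that step 27.6% of tested genes were called lower and 27.1% higher.

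**Figure D5:**
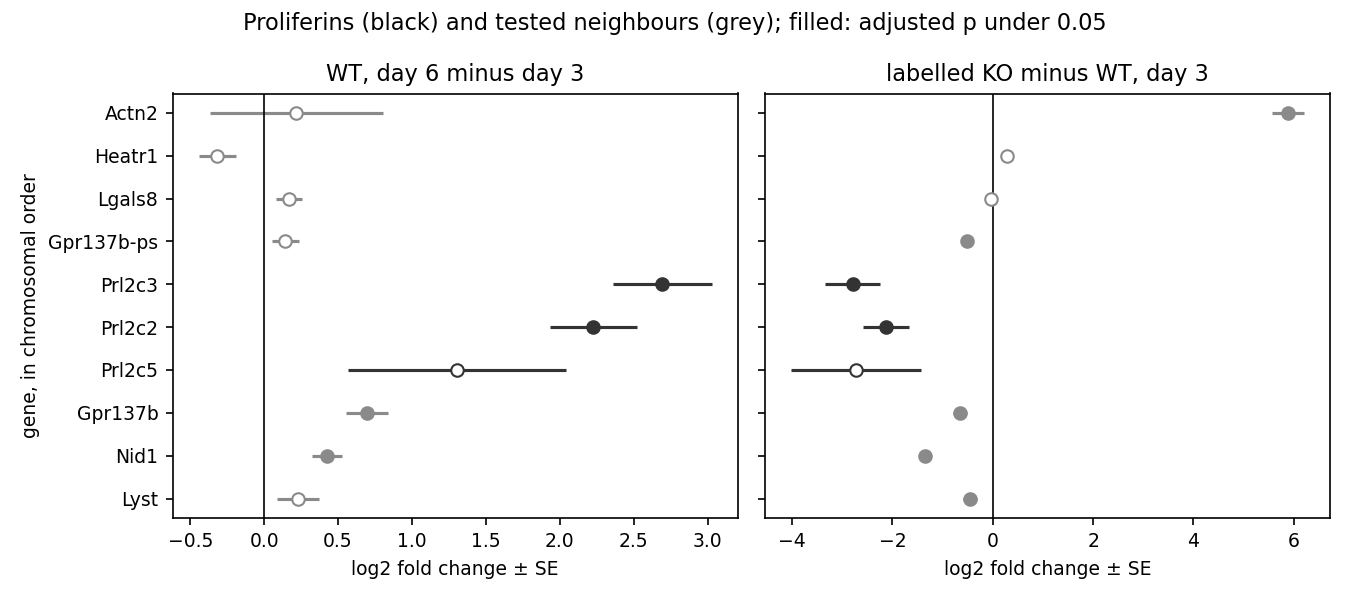
Log2 differences (horizontal axis) of the proliferin members and their 7 tested neighbours, in their order along the chromosome (vertical axis), for 1 panel per comparison, with standard errors as bars and filled points where the adjusted p was under 0.05. Nid1 and Gpr137b share the sign of Prl2c2 and Prl2c3 in the control step from day 3 to day 6 and in the difference between labels at day 3, with values nearer to 0, and are filled in both panels. Lgals8, Gpr137b-ps and Lyst share these signs too but were not called in the control step.

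The AP-1 letters were looked for in the promoters of Prl2c3 and Prl2c5, which are shown as the 250 bases before 1 annotated transcript start of each gene, from RefSeq on GRCm38.p6, 5′ to 3′ on the strand of the gene. No promoter is shown or searched for Prl2c2, which has no entry in the set of promoters used. Capitals mark the AP-1 letters TGANTCA and the letters TATATAA. Prl2c3 lies at chr13:12800080-12800329 on the minus strand and Prl2c5 at chr13:13182466-13182715 on the plus strand. RefSeq's models of these genes reach farther upstream than the start used, so the last 14 bases shown for Prl2c3 and the last 13 for Prl2c5 lie inside them, and motif positions are counted from the start used.
Prl2c3: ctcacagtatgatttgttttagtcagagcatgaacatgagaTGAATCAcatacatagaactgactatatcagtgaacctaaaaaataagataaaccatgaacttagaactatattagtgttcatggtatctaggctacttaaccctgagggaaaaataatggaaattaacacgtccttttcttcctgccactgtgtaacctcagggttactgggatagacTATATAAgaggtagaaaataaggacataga
Prl2c5: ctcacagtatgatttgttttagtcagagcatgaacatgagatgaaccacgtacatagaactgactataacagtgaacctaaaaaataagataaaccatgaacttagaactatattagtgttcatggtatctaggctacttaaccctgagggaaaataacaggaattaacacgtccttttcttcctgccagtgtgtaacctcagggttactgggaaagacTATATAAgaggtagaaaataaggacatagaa

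Motifs were searched on both strands in 300 bases, from 250 before to 50 after that start, as in all 32851 RefSeq promoters of that length. The 2 windows match at 287 of 299 aligned bases, or 96.0%. The AP-1 letters occur once in Prl2c3, at base -209, and not in Prl2c5, and 7.81% of all promoters hold them. TATATAA, which was added after the sequences had been seen, starts at base -30 in Prl2c3 and -31 in Prl2c5 and occurs in 3.24% of all promoters. The RUNX letters TGTGGT (16.8% of all promoters), the glucocorticoid half-site AGAACA (19.0%), the E-box CANNTG (72.3%) and TATAAA (13.6%) have no match in either window. A match is a run of letters and not a bound site, and a missing match says only that those letters are not in this window.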

How the data were processed

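Poly(A) RNA of C2C12 cells was measured in 23 libraries. The authors deposited 1 table of estimated counts and 1 table of TPM values per gene; RSEM, Bowtie2 and the build mm10 are named in the submitters' processing notes, and the annotation and the use of strand are not given in the sources used here. The deposited estimated counts are whole numbers, and rounding changed 0 values. Totals of 22197606 to 23684077 counts per library set the precision: 3 counts correspond to 0.126 to 0.140 CPM.

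Samples were grouped by title and genotype label. The rows of Prl2c2, Prl2c3 and Prl2c5 were summed before the fit of the family, and kept apart for the fit of the members. Genes passed edgeR's filterByExpr (minimum count 10, minimum total 15), libraries were scaled by TMM, and edgeR 4.0.16 (R 4.3.3) fitted 1 mean per group over all 23 libraries, with its quasi-likelihood test and Benjamini-Hochberg adjustment over all 14187 genes (threshold 0.05). The procedure was tested on simulated counts with 1 spread setting for all genes and changes in 1 group, simpler than these data. Of 13 comparisons, 8 were tested and 5, which use the libraries by which the genes were chosen, were described. Alternatives were RLE scaling or library size only, no filter or a mean count of at least 50, a replicate block, DESeq2 1.42.0, limma 3.58.1 on log2(TPM + 1) and log2(TPM + 0.1), only the groups compared, and each library left out. Shares were compared by exact permutation tests.

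The members, the gene lists and the tests were chosen with earlier results of these data known. Named genes are the members, the lists' genes, Runx1, and the 8 genes with the highest Pearson r with the family sum (log2 CPM with a prior count of 2; at least 5 CPM in some group; model names left out).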

Additional observations from a re-analysis of the deposited data

Results flagged for a closer look

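The change of the proliferin sum from day 1 to day 3 differed between the labels by a test of the difference itself: the interaction was -2.68 on the log2 scale (SE 0.71, adjusted p = 0.0241, edgeR's quasi-likelihood test), resting on 16 to 33 counts in the control libraries of day 1 and 12 to 34 in the Runx1KO libraries of day 3. In control cells all 3 day 3 libraries lay above all 3 day 1 libraries, and in the libraries labelled Runx1KO the 2 groups overlapped. The call was lost without Runx1KO day 1 replicate 1 (adjusted p = 0.0789) or replicate 2 (0.0739), control day 1 replicate 1 (0.0547) or Runx1KO day 3 replicate 1 (0.0626).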

How the results depend on the processing

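Of 198 alternative values of the proliferin sum, 189 kept their direction and their side of the threshold or moved by less than the spread between replicates. The interaction over day 1 to day 3 ran from -3.002 to -2.36 with single libraries left out and lost its call without any of 4 of them, as given above. Small uncalled differences changed sign with a library left out: the sum from day 1 to day 3 in libraries labelled Runx1KO ran from -0.51 to 0.14, and the difference between labels at day 1 from -0.12 to 0.54. The described difference at day 0 ran from -0.51 to -0.37 with single libraries left out, the latter without Runx1KO replicate 1, and from -0.53 to -0.43 under the other settings.

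Of 572 values of single members, 523 held in the same sense and 13 reversed. For Prl2c3 from day 1 to day 3 in libraries labelled Runx1KO, limma gave -0.10 on log2(TPM + 1) and -0.76 on log2(TPM + 0.1), and left-out libraries gave -0.28 to 0.75. For Prl2c2 the same step gave -0.63 to 0.13 and its step from day 3 to day 6 gave -0.11 to 0.40. Between labels at day 1, Prl2c2 was at -0.016 with limma on log2(TPM + 0.1) and at -0.27 to 0.53 with libraries left out, and Prl2c3 at -0.13 to 0.67. The cause was not tested. The libraries of days 1 and 3 labelled Runx1KO hold at most 39 counts of the sum each. Prl2c5 has no value at a mean count of at least 50. The counts of the other lists under other scalings and tools were added after the data had been seen.

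Same-numbered libraries did not deviate together: the mean correlation of their deviations lay between -0.09 and 0.05 over the comparisons. With a replicate block in the fit, the interaction was -2.67 (adjusted p = 0.0354, edgeR's quasi-likelihood test) and the difference at day 3 was -2.47, and the block changed no call of the sum or the members.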
